A study of Homo sapiens with 18 samples.

Results

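ZFP36, ZFP36L1 and ZFP36L2 are the 3 members of the ZFP36 family that were followed here. Their rows were taken by gene symbol from the deposited table of each cell line, 3 of 15358 genes listed for MCF10A and 3 of 15257 listed for hTERT RPE-1. All of them passed the filter on low values in both lines. MCF10A is a near-normal human breast epithelial line, and hTERT RPE-1 is a human retinal pigment epithelial line immortalised with telomerase. Each line was transfected for 72 h at 30 nM with siNT, a non-targeting siRNA, with the hsa-miR-28-5p mimic or with the hsa-miR-708-5p mimic, and polyadenylated RNA was sequenced from 3 biological replicates of each group, 18 libraries in all. The mimics belong to the MIR-28 family, and siNT is an siRNA rather than a mimic, so every group carried a transfected duplex. ZFP36 and ZFP36L1 carry the label of a microRNA target in the study, and ZFP36L2 carries none. The study lists targets of its screen hits in general and of the MIR-28 mimics, and the label is not taken here as specific to these mimics. The comparisons ask how the transcript of each member differs between a mimic and siNT, between the mimics, and between the lines.

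ZFP36 proteins bind AU-rich elements in 3′ UTRs through a pair of zinc fingers of the CCCH type. They bring the CCR4-NOT deadenylase to the bound mRNA, which then loses its poly(A) tail and is decapped and degraded. ZFP36, also called tristetraprolin, is best known for limiting cytokine mRNAs, and its own transcript is an immediate early transcript with AU-rich elements. The kinase MK2, downstream of p38, phosphorylates ZFP36, which then binds 14-3-3 proteins and is less active. ZFP36L1 and ZFP36L2 share the zinc fingers and are less tied to acute stimulation.

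The depth of the libraries, estimated from the steps between low values, was 19.4–31.7 M reads in MCF10A and 23.8–40.3 M reads in hTERT RPE-1. The deposited values are estimated read counts divided by a size factor, and the value of 3 reads was at most 4.03 and 4.41 in the respective lines, well below every value of the family. The 8 breast basal epithelial markers were all listed in MCF10A, and 5 of them (KRT5, KRT14, KRT17, KRT6A and CDH1) were not listed in hTERT RPE-1. Of 9 retinal pigment epithelial markers, 7 were listed in hTERT RPE-1, where PAX6, OTX2 and MITF were present and RPE65 and TYR were not listed. Their summed value there, 151458–177440 with siNT, came mostly from VIM and CDH2, which other mesenchymal cells also express. In MCF10A, 5 of the 9 were listed, MITF among them, and summed to 13010–17592 with siNT. Replicate 1 of miR-28 in hTERT RPE-1 stood apart, with 15.1% of its total value on ribosomal RNA genes against 4.23–7.20% in the other 8 libraries of this line, so the miR-28 results of the members and lists in this line are also given without it. The list genes named below as called with miR-28 in hTERT RPE-1 were called without it too. Scaling by library size instead of by the deposited size factors moved the median change over all genes to a log2 value of 0.12 (miR-28) and 0.14 (miR-708) in MCF10A and to 0.09 and 0.32 in hTERT RPE-1. The fold changes below are relative to the median gene under the deposited scaling. Adjusted p-values within a line are those of limma after Benjamini-Hochberg correction over all genes tested, SE is the standard error of a log2 fold change, and a gene was called below 0.05.

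The transcript used for each member has 2 exons (hg38, GENCODE 44), and every 3′ UTR and coding match described below lies in exon 2 of it. ZFP36 is on the plus strand of chromosome 19, from 39406847 to 39409412, with a transcript of 1747 nt of which 981 nt are coding. ZFP36L1 is on the minus strand of chromosome 14, from 68787660 to 68796253, with a transcript of 3017 nt, 1017 nt coding and 1871 nt of 3′ UTR. ZFP36L2 is on the minus strand of chromosome 2, from 43222402 to 43226606, with a transcript of 3693 nt, 1485 nt coding and 1917 nt of 3′ UTR. A long noncoding RNA overlaps ZFP36L1 on the same strand and another overlaps ZFP36L2 on the opposite strand. Neither is in the deposited tables, and the strand setting of the counting is not given in the sources used here, so reads from them cannot be told apart from those of the members.

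The mature hsa-miR-708-5p (RefSeq, GRCh38.p14, minus strand of chr11:79402077-79402099) is shown because its seed defines the sites searched, with bases 2 to 8 in capitals. The study treats hsa-miR-28-5p as having the same seed.

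hsa-miR-708-5p: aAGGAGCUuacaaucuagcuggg

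Sites were searched on the sense strand of 1 transcript per gene for GCTCCT, the 6mer, and for its extensions AGCTCCT (7mer-m8), GCTCCTA (7mer-A1) and AGCTCCTA (8mer), which overlap it. None of the members has GCTCCT in its 3′ UTR, nor in its longest annotated 3′ UTR. Over 19205 genes with an annotated 3′ UTR, 32.7% have it there, as do 23.2%, 40.5% and 41.0% of those whose 3′ UTR is within 20% of the length of that of ZFP36, ZFP36L1 and ZFP36L2. Matches were found elsewhere in the transcripts. ZFP36 has a 7mer-m8 and a separate 6mer in its coding sequence, ZFP36L1 likewise, and ZFP36L2 has a coding 6mer and 2 in its 5′ UTR. In all genes, 46.0% have GCTCCT in the coding sequence. The longest match in each coding sequence is shown with 15 bases before it and 5 after it, the match in capitals.

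ZFP36, plus strand of chr19:39408334-39408360: ccttccctgtcctccAGCTCCTtctcg

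ZFP36L1, minus strand of chr14:68790342-68790368: agttccaccagaaccAGCTCCTcagca

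ZFP36L2, minus strand of chr2:43224898-43224923: cttcggcctcgtcctGCTCCTcctcc

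The 3′ UTR of every member holds 3 copies of TATTTAT, the core of the AU-rich element that the family itself binds, and in each gene 1 of them is part of the longer TTATTTATT. In all genes with a 3′ UTR, 31.8% have at least 1 TATTTAT on the sense strand, 13.5% have at least 2 and 8.50% have TTATTTATT. The longer element of each gene is shown with 10 bases on each side of TATTTAT, which is in capitals.

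ZFP36, plus strand of chr19:39409197-39409223: atgacgacttTATTTATtctaatatga

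ZFP36L1, minus strand of chr14:68788078-68788104: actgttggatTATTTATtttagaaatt

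ZFP36L2, minus strand of chr2:43223449-43223475: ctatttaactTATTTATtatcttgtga

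The make-up of the family differed between the lines before any mimic was added. Per kb of transcript, ZFP36L1 and ZFP36L2 were nearly level in MCF10A with siNT, at 42.6% ± 0.55 and 41.5% ± 0.48 of the summed value of the family per kb, and ZFP36 made up 16.0% ± 1.02 (mean ± SD, n = 3). In hTERT RPE-1 with siNT, ZFP36L1 took 76.0% ± 2.97, ZFP36L2 19.2% ± 2.04 and ZFP36 4.86% ± 0.93. All shares of 1 line lay outside the range of the other line. The tables were scaled separately, so only such shares, taken within a library, are set side by side across the lines. The order of ZFP36L1 and ZFP36L2 in MCF10A rests on the transcript length, since all annotated exons of ZFP36L1 together span 6466 nt. With exon unions as lengths, the log2 ratio of ZFP36L2 to ZFP36L1 with siNT was 1.06 in place of -0.04 in MCF10A and -0.89 in place of -1.99 in hTERT RPE-1. ZFP36 was the lowest of the family under either length, in both lines.

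**Figure D1:**
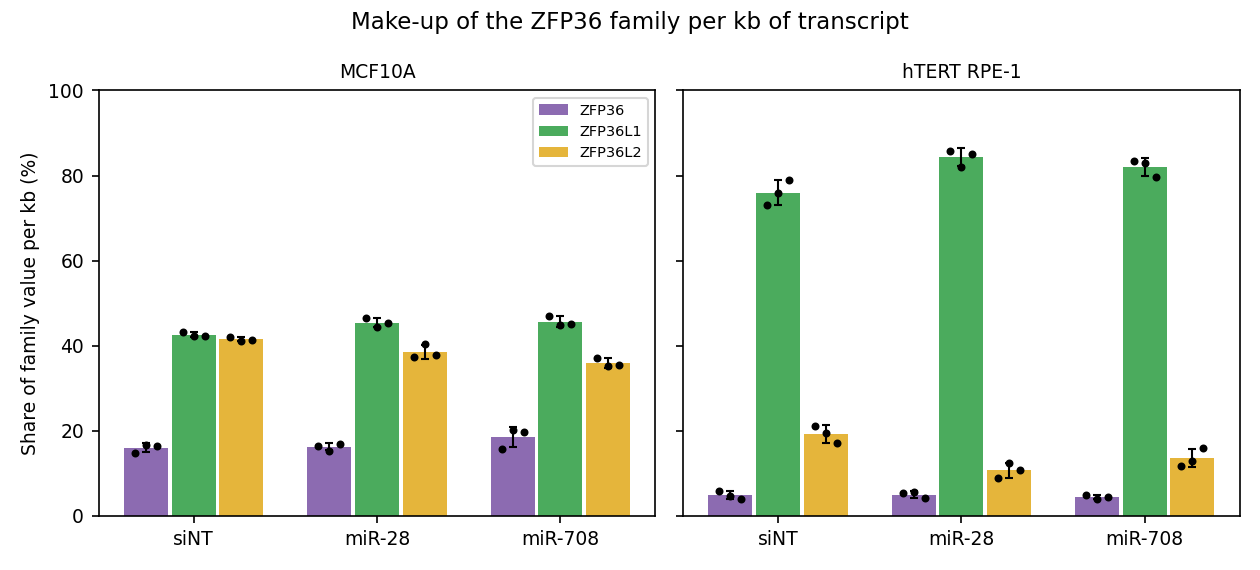
Share of each ZFP36 family member in the summed value of the family per kb of transcript (vertical axis, percent) by treatment, MCF10A on the left and hTERT RPE-1 on the right. Bars are means of 3 libraries, error bars are SD and dots are libraries. ZFP36L1 and ZFP36L2 are nearly level in MCF10A with siNT (42.6% and 41.5%), and ZFP36L1 dominates in hTERT RPE-1 (76.0%), where the ZFP36L2 share is lower with each mimic.

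ZFP36, which encodes tristetraprolin, did not pass the test with either mimic in either line. In MCF10A its values were 999.5, 1315 and 1278 with siNT, 1024, 1059.8 and 1130.5 with miR-28, and 1005, 1297 and 1328 with miR-708 (replicates 7, 8 and 9). The groups overlapped, and replicate 7 was the lowest of each group. The log2 fold change was -0.15 with miR-28 (SE 0.14, limma adjusted p = 0.449) and 0.01 with miR-708 (SE 0.14, limma adjusted p = 0.948). In fold terms the 95% confidence intervals were 0.733–1.11 and 0.822–1.24, so a fall below 0.733 or 0.822 of the siNT level lies outside them. The transcript was scarcer in hTERT RPE-1, at 271, 236 and 186 with siNT, 262, 337 and 224 with miR-28, and 242, 226 and 242 with miR-708 (replicates 1, 2 and 3). These groups overlapped as well, and the spread among libraries was wide with siNT and miR-28 (coefficients of variation of 18.4% and 21.1%). The log2 fold changes were 0.24 with miR-28 (SE 0.18, limma adjusted p = 0.289) and 0.05 with miR-708 (SE 0.18, limma adjusted p = 0.826), with fold intervals of 0.900–1.55 and 0.788–1.36. Without the miR-28 library that stood apart, the former was 0.26 (limma adjusted p = 0.311).

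ZFP36L1 rose with both mimics in hTERT RPE-1 and passed the test with neither in MCF10A. In hTERT RPE-1 it had values of 5843, 6531 and 6359 with siNT, 7407, 8629 and 8075 with miR-28, and 7297, 8142 and 7403 with miR-708. Every mimic library was above every siNT library, as was the case in that direction for 26.9% (miR-28) and 34.3% (miR-708) of all genes tested in this line. With miR-28 the log2 fold change was 0.36 (SE 0.09, limma adjusted p = 0.00729), a mean at 129% of that with siNT and a fold interval of 1.12–1.48. With miR-708 it was 0.29 (SE 0.09, limma adjusted p = 0.0171), 122% of siNT and an interval of 1.06–1.40. Under library size scaling, which put the median of all genes at 0.32, the change with miR-708 was 0.61 (limma adjusted p = 0.000445). Without the miR-28 library that stood apart, the change with miR-28 was 0.42 (limma adjusted p = 0.00450). The call with miR-708 was lost without siNT replicate 1 (0.24, limma adjusted p = 0.0754) or without miR-708 replicate 2 (0.24, limma adjusted p = 0.0633).

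MCF10A gave ZFP36L1 values of 5035, 5735 and 5682 with siNT, 5022, 5324 and 5242 with miR-28, and 5191, 5007 and 5269 with miR-708. The siNT group held both the highest values and, in replicate 7, a value inside the range of the mimic libraries. The log2 fold changes were -0.08 (SE 0.09, limma adjusted p = 0.559) and -0.09 (SE 0.09, limma adjusted p = 0.477), with fold intervals of 0.832–1.08 and 0.825–1.07. Under library size scaling their sign turned, to 0.04 and 0.06, again without passing the test.

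ZFP36L2 was the member with lower means in all 4 comparisons with siNT, and it passed the test in 2 of them. Its MCF10A values were 5998, 6851 and 6780.3 with siNT, 4924, 5910.2 and 5354 with miR-28, and 5018, 4813 and 5064 with miR-708. Each mimic group lay wholly below the siNT group, as it did for 22.1% (miR-28) and 23.9% (miR-708) of all genes tested in MCF10A. With miR-708 the log2 fold change was -0.40 (SE 0.10, limma adjusted p = 0.00968), a mean at 75.9% of siNT with a fold interval of 0.656–0.881. Library size scaling left -0.25 (limma adjusted p = 0.0673), so that call depends on the scaling. With miR-28 the change was -0.28 (SE 0.10, limma adjusted p = 0.0592), 82.5% of siNT, just outside the threshold. With the replicate number as a block this change passed the test (limma adjusted p = 0.0402), though whether the numbers pair libraries was not settled.

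In hTERT RPE-1, ZFP36L2 was at 2069, 2039 and 1680.2 with siNT, 937, 1597 and 1249 with miR-28, and 1249.9, 1554 and 1799.6 with miR-708. The miR-28 group lay below the siNT group, as did 27.5% of all genes tested, whereas miR-708 replicate 3 was above siNT replicate 3. The log2 fold change with miR-28 was -0.64 (SE 0.19, limma adjusted p = 0.0175), a mean at 65.4% of siNT with a fold interval of 0.480–0.857. The lowest value belongs to replicate 1, the library that stood apart by its ribosomal RNA, and without it the change was -0.44 (limma adjusted p = 0.0445). Without siNT replicate 1 or siNT replicate 2 the call was lost (limma adjusted p = 0.0614 and 0.0572). The change with miR-708 was -0.34 (SE 0.19, limma adjusted p = 0.140), with a fold interval of 0.592–1.06. Under library size scaling it was -0.02.

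**Figure D2:**
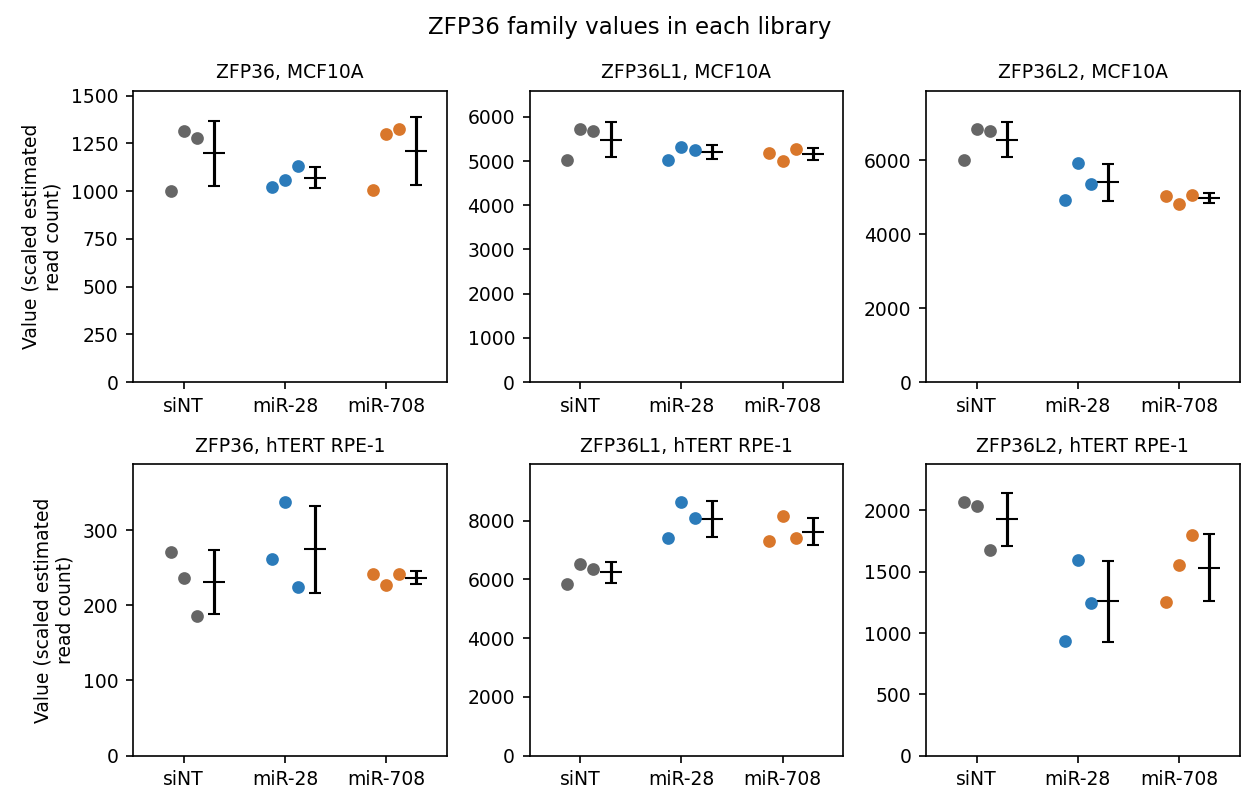
Values of ZFP36, ZFP36L1 and ZFP36L2 (vertical axes, estimated read counts divided by the size factor of the library, from 0) in the 3 libraries of each group, MCF10A above and hTERT RPE-1 below. Dots are libraries in the order of their replicate numbers, and the bar beside them is the mean ± SD. In hTERT RPE-1, ZFP36L1 is higher in all 6 mimic libraries than in the siNT libraries, and ZFP36L2 with miR-28 lies at 937 to 1597 against 1680.2 to 2069 with siNT.

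Counted per comparison, the test called 0 of 3 members with miR-28 in MCF10A (limma, with 1 at an unadjusted p under 0.05), where 22.7% of all genes tested were called, and 1 of 3 with miR-708, where 32.8% were. In hTERT RPE-1 it called 2 of 3 with miR-28 and 1 of 3 with miR-708, beside 46.8% and 62.1% of all genes tested. By direction, 10.7% of all genes were called higher and 12% lower with miR-28 in MCF10A, and 15.5% and 17.3% with miR-708. The corresponding shares in hTERT RPE-1 were 23.3% and 23.5% with miR-28, then 30.9% and 31.2% with miR-708. With so large a share of the transcriptome called, these counts are not apart from the background. The sizes were also ordinary: 70.4% of the genes tested changed less than ZFP36L2 did with miR-28 in hTERT RPE-1, and 47.6% changed less than ZFP36L1.

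**Figure D3:**
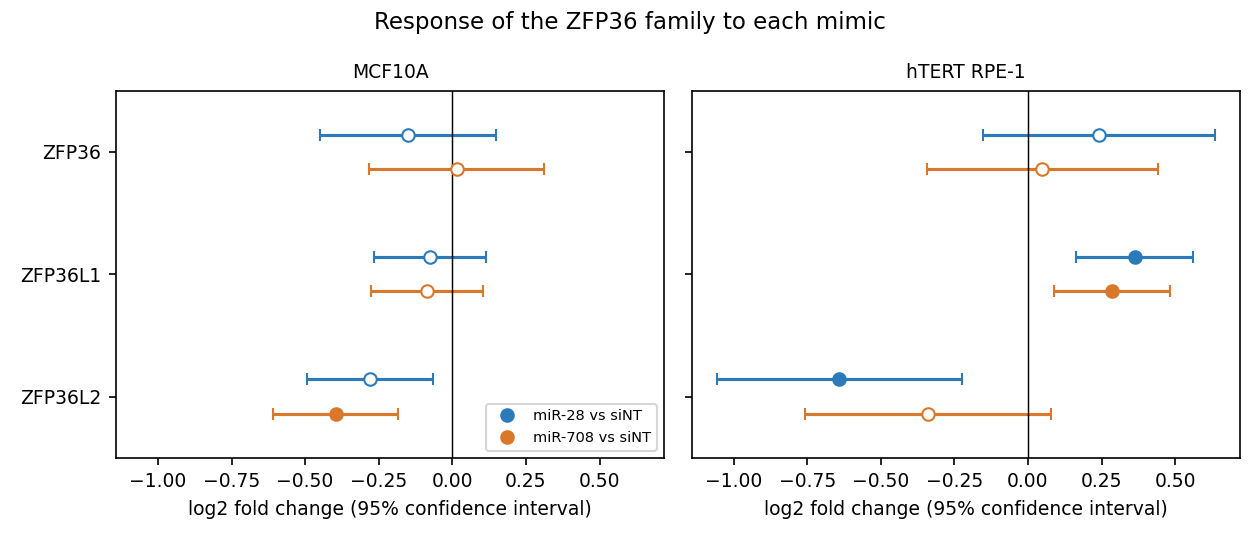
Log2 fold change of each member with each mimic against siNT (horizontal axis, with the 95% confidence interval from limma), MCF10A on the left and hTERT RPE-1 on the right. Filled circles passed an adjusted p of 0.05 and open circles did not. ZFP36L2 lies left of 0 in all 4 comparisons, ZFP36L1 lies right of 0 in hTERT RPE-1 alone, and the intervals of ZFP36 span 0 throughout.

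The mimics were compared directly at their common dose and time. The test called 0 of 3 members in MCF10A and 0 of 3 in hTERT RPE-1 (limma, none at an unadjusted p under 0.05), beside 1.55% and 21.2% of all genes tested. In hTERT RPE-1 the difference, miR-708 minus miR-28, was 0.30 for ZFP36L2 on the log2 scale with an interval of -0.12 to 0.72 (limma adjusted p = 0.282). Without the miR-28 library that stood apart it was 0.10 (limma adjusted p = 0.717), and under library size scaling it was 0.53, without passing the test. For ZFP36 it was -0.19 with an interval of -0.59 to 0.20 (limma adjusted p = 0.476), and -0.22 without that library. For ZFP36L1 the intervals were narrower, -0.20 to 0.18 in MCF10A and -0.28 to 0.12 in hTERT RPE-1 (a difference of -0.08, or -0.13 without that library). In hTERT RPE-1 a difference as large as the changes of ZFP36L1 against siNT, 0.36 and 0.29, lies outside its interval, whereas the interval of ZFP36L2 reaches past the size of its changes there. That no member was called does not show that the mimics act alike. Both comparisons with siNT in a line use the same siNT libraries.

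Of the family, ZFP36L1 was the member whose response differed between the lines by the test of the difference itself, computed from the within-line fold changes. Its log2 fold change in hTERT RPE-1 exceeded that in MCF10A by 0.44 with miR-28 (SE 0.12, limma adjusted p = 0.0145) and by 0.37 with miR-708 (SE 0.12, limma adjusted p = 0.0211, here over 13339 genes). Such a difference was called for 23.4% and 39.8% of the genes tested in both lines. Without MCF10A siNT replicate 8, MCF10A siNT replicate 9, hTERT RPE-1 siNT replicate 1 or hTERT RPE-1 miR-708 replicate 2, the difference with miR-708 no longer passed the test (limma adjusted p = 0.0528, 0.0555, 0.0660 and 0.0572). Without the hTERT RPE-1 miR-28 library that stood apart, the difference of ZFP36L1 with miR-28 was 0.50 (limma adjusted p = 0.00809). For ZFP36L2 the differences were -0.36 (interval -0.81 to 0.09, limma adjusted p = 0.235; -0.16 without that library and -0.55 without hTERT RPE-1 miR-28 replicate 2) and 0.06 (interval -0.39 to 0.51, limma adjusted p = 0.854). For ZFP36 they were 0.39 (interval -0.07 to 0.86, limma adjusted p = 0.214, and 0.42 without the library that stood apart) and 0.03 (interval -0.43 to 0.50, limma adjusted p = 0.916).

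The balance within the family does not depend on how libraries are scaled, since a ratio is taken inside each library. In MCF10A the log2 ratio of ZFP36L2 to ZFP36L1 per kb was between -0.039 and -0.035 in the 3 siNT libraries, -0.32 to -0.14 with miR-28 and -0.35 to -0.34 with miR-708. In hTERT RPE-1 it was -2.21 to -1.79 with siNT, -3.27 to -2.73 with miR-28 and -2.84 to -2.33 with miR-708. All mimic libraries were thus below all siNT libraries of their line. With miR-28 and miR-708 the mean was lower by a log2 difference of -0.20 and -0.31 in MCF10A, and of -1.004 and -0.63 in hTERT RPE-1 (each p = 0.1 by an exact permutation test, two-sided, the smallest p that 3 libraries against 3 allow). Without the library that stood apart, the change with miR-28 in hTERT RPE-1 was -0.86. How often the ratio of another pair of genes separates in this way was not computed, so this separation has no background beside it. Of single genes tested, 22.1% (miR-28) and 23.9% (miR-708) lay wholly lower in MCF10A, and 27.5% (miR-28) in hTERT RPE-1. As a share of the family per kb, ZFP36L2 went from 19.2% with siNT to 10.7% ± 1.77 with miR-28 and 13.5% ± 2.12 with miR-708 in hTERT RPE-1, and from 41.5% to 38.4% ± 1.64 and 35.9% ± 1.11 in MCF10A (mean ± SD, n = 3).

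Set against ZFP36, the log2 ratio of ZFP36L2 was also lower without overlap with miR-708 in MCF10A (-0.41) and with miR-28 (-0.88, or -0.71 without the library that stood apart) and miR-708 (-0.39) in hTERT RPE-1 (each p = 0.1 by the exact permutation test). With miR-28 in MCF10A the groups overlapped (-0.13, exact p = 0.3). The ratios of other gene pairs were not computed here either. The ratio of ZFP36L1 to ZFP36 overlapped between each mimic and siNT in both lines (differences of -0.10 to 0.24, exact p = 0.4 to 0.7). The summed value of the family per kb was 4275 ± 356.0 with siNT, 3797 ± 196.3 with miR-28 and 3746 ± 116.9 with miR-708 in MCF10A (mean ± SD, n = 3). The MCF10A groups overlapped, with siNT down to 3865, miR-28 up to 3972 and miR-708 up to 3878. In hTERT RPE-1 the mean sum was 2724 ± 110.8 with siNT, 3162 ± 313.9 with miR-28 and 3075 ± 176.8 with miR-708. ZFP36L1 is the main term there. Unlike the ratios, these sums depend on how libraries are scaled, and their changes were not tested.

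Over the 9 libraries of a line, log2 values of ZFP36L1 and ZFP36L2 had a Pearson r of 0.82 (MCF10A) and -0.49 (hTERT RPE-1). That of ZFP36 with ZFP36L1 was 0.53 and 0.34, and with ZFP36L2 0.23 and -0.02. These are descriptions, since the libraries share treatments and size factors. Among 10233 genes, those most like a member were chosen by the lower r of the lines. For ZFP36L2 they were SHMT2 (0.88 in MCF10A and 0.94 in hTERT RPE-1), a mitochondrial enzyme of serine and glycine metabolism, MRPS2 (0.93 and 0.88), a protein of the mitochondrial ribosome, and BAG1 (0.88 and 0.87), a co-chaperone of HSP70. For ZFP36L1 they were POGLUT1 (0.78 and 0.79), a glucosyltransferase that modifies Notch, CADPS2 (0.77 and 0.79), a factor of vesicle exocytosis, and TERF2 (0.79 and 0.75), a telomere-binding protein. For ZFP36 the r values were lower, with TTC28-AS1 (0.80 and 0.78), an antisense RNA whose reads may not be told apart from those of its partner, SMOX (0.67 and 0.76), spermine oxidase, and SLC25A37 (0.67 and 0.68), a mitochondrial iron carrier.

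The CCR4-NOT complex, which the family recruits, had 11 subunit genes in the list and all were tested. In MCF10A, 1 was higher and 1 lower with miR-28, and 1 higher and 2 lower with miR-708. Those are 18.2% and 27.3% of the list, beside 22.7% and 32.8% of all genes tested. In hTERT RPE-1, 4 were higher and 1 lower with miR-28 (3 and 1 without the library that stood apart), and 6 higher and 2 lower with miR-708. The calls with all libraries made up 45.5% and 72.7% of the list in this line, beside 46.8% and 62.1% of all genes tested. The list's median log2 fold changes there were 0.17 and 0.39, beside 0.0061 and 0.0021 over all genes tested. CNOT6, a catalytic deadenylase subunit, rose in all 4 comparisons, as did 4.33% of the genes tested in both lines. Its mean was 5227 ± 528.2 with siNT, 6898 ± 405.9 with miR-28 and 6726 ± 202.3 with miR-708 in MCF10A (log2 fold changes of 0.40 and 0.37). In hTERT RPE-1 it was 2652 ± 209.1, 4351 ± 156.6 and 4320.4 ± 41.7 (0.72 and 0.71, mean ± SD, n = 3).

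Of 12 genes of decapping, 5′ exonuclease and other poly(A) removal, 2 were higher and 1 lower with miR-28 and 1 higher and 1 lower with miR-708 in MCF10A. The counts in hTERT RPE-1 were 2 higher and 4 lower with miR-28 (3 and 4 without the library that stood apart), then 3 higher and 5 lower with miR-708, and library size scaling turned both, to 3 higher and 1 lower and to 5 higher and 1 lower. PATL1, a decapping activator, rose with miR-708 by 0.59 (SE 0.10) in MCF10A and by 1.57 (SE 0.28) in hTERT RPE-1 on the log2 scale. With miR-28 it rose in hTERT RPE-1 by 0.75 (limma adjusted p = 0.0488). In MCF10A its change with miR-28 went the other way, at -0.28 (limma adjusted p = 0.0662, or 0.0415 with the replicate block). DCP1A, a cofactor of the decapping enzyme, rose in hTERT RPE-1 by 0.67 with miR-28 and 0.73 with miR-708 (SE 0.16 each), and its paralogue DCP1B rose there by 0.54 with miR-708 (SE 0.09). DDX6, a helicase that links deadenylation to decapping, fell there by 0.40 and 0.86 on the log2 scale (SE 0.11 each).

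Other proteins that bind decay elements made a list of 10. In MCF10A, 1 was lower with miR-28 and 3 with miR-708, and the rest did not pass the test. In hTERT RPE-1, 1 was higher and 4 lower with miR-28, the same counts without the library that stood apart, and 2 higher and 4 lower with miR-708, the last of which became 3 higher with none lower under library size scaling. HNRNPD, also called AUF1, fell in MCF10A by 0.58 with miR-28 and 0.53 with miR-708 on the log2 scale (SE 0.15 each), from a mean of 11775 to 7841 and 8234, and the change with miR-708 was just outside the threshold under library size scaling (-0.39, limma adjusted p = 0.0510). In hTERT RPE-1, TIAL1, a relative of TIA1, fell by 0.46 and 0.52, CELF1, which binds GU-rich elements, by 0.39 and 0.42, and RC3H2, a roquin, by 0.36 and 0.43 (SEs of 0.08). Under library size scaling the changes of TIAL1, CELF1 and RC3H2 with miR-708 in that line did not pass the test, though each stayed below 0.

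Genes of the p38-MK2 arm that controls the family, with the PP2A and 14-3-3 genes that act on the phosphorylated protein, made a list of 17. With miR-28 and miR-708 in MCF10A, 3 of 17 were lower each time and 1 was higher with miR-708 (3 higher and 4 lower with the replicate block). In hTERT RPE-1, where 16 were tested, 4 were higher and 5 lower with miR-28 (2 and 4 without the library that stood apart) and 5 higher and 8 lower with miR-708. Library size scaling turned the balance, to 5 higher and 3 lower with miR-708 in MCF10A and to 6 higher and 4 lower, then 7 higher and 5 lower, in hTERT RPE-1. YWHAH, a 14-3-3 protein, and MAP2K3, the kinase MKK3 that activates p38, fell in all 4 comparisons, as did 5.67% of the genes tested in both lines. YWHAH went from 2208 ± 159.1 with siNT to 918 ± 255.6 with miR-28 and 988 ± 386.1 with miR-708 in MCF10A, log2 fold changes of -1.30 and -1.23 (mean ± SD, n = 3). In hTERT RPE-1 it went from 4940 ± 137.5 to 755 ± 53.4 and 643 ± 55.1, log2 fold changes of -2.71 and -2.94. MAP2K3 fell by 0.49 and 0.65 (MCF10A) and by 0.48 and 0.26 (hTERT RPE-1) on the log2 scale. Under library size scaling its change with miR-708 in hTERT RPE-1 became 0.06, and that with miR-28 in MCF10A did not pass the test (limma adjusted p = 0.0657).

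Genes known as targets of the family were described next. The list of 30 was written from general knowledge of transcripts that members of the family bind, and 29 of them have TATTTAT in the 3′ UTR. In MCF10A, 28 were tested. With miR-28, 5 were higher and 3 lower (9 and 4 with the replicate block), and with miR-708, 6 were higher and 4 lower (10 and 5 with the block). The median log2 fold changes were 0.08 and 0.14, and 28.6% and 35.7% of the list were called, beside 22.7% and 32.8% of all genes tested. In hTERT RPE-1, 10 of 28 were higher and 5 lower with miR-28 (8 and 5 without the library that stood apart), and 14 were higher and 6 lower with miR-708. Medians there were 0.37 and 0.77, beside 0.0061 and 0.0021 over all genes tested, and the shares called, 53.6% and 71.4%, compare with 46.8% and 62.1% of all genes.

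The direction was mixed within this list. HIF1A, the oxygen-responsive transcription factor, and VEGFA, an angiogenic growth factor, fell in all 4 comparisons, as did 5.67% of the genes tested in both lines. They are named because they were called in all 4, while more targets were called higher than lower in each comparison with siNT. HIF1A fell by 0.51 and 0.67 (MCF10A, miR-28 first) and by 0.93 and 1.34 (hTERT RPE-1) on the log2 scale. VEGFA went from a mean of 3991 with siNT to 2640 and 2520 in MCF10A, and from 9589 to 4909 and 6541 in hTERT RPE-1. LIF, a cytokine of the interleukin 6 group, passed the test in opposite directions in the lines. Its mean rose from 173 ± 79.1 with siNT to 379 ± 150.4 with miR-28 and 357 ± 122.8 with miR-708 in MCF10A, and fell from 6297 ± 1142 to 3036 ± 977.4 and 3696 ± 747.9 in hTERT RPE-1 (mean ± SD, n = 3). With library size scaling, the changes of VEGFA and LIF with miR-708 in hTERT RPE-1 were -0.27 and -0.45 and did not pass the test.

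**Figure D4:**
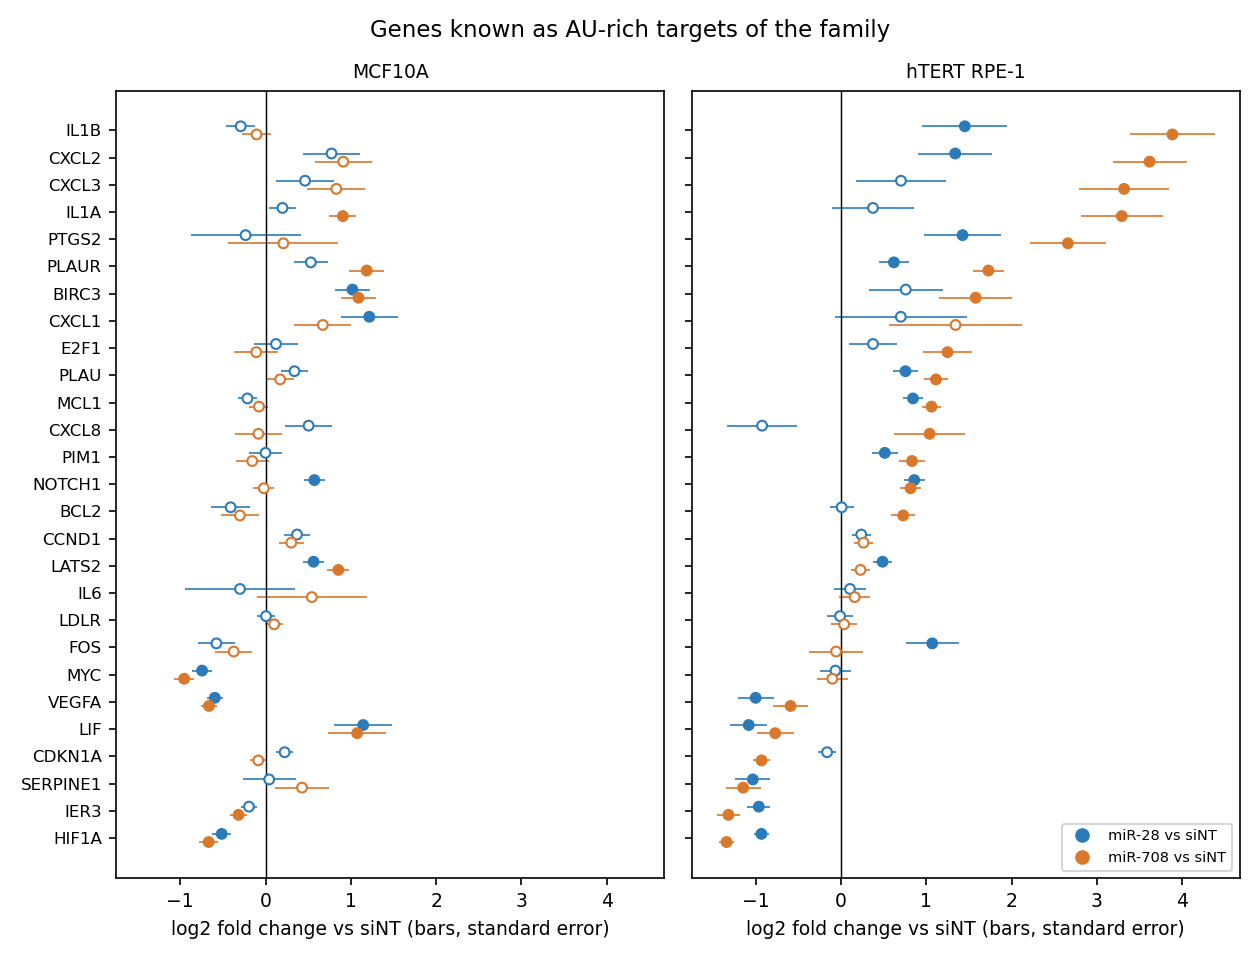
Log2 fold change against siNT (horizontal axes, bars are SEs from limma) of the 27 listed targets of the family that were tested in both lines, ordered by their change with miR-708 in hTERT RPE-1. Filled circles passed an adjusted p of 0.05. In hTERT RPE-1, 14 targets are called higher and 6 lower with miR-708, and the changes of CXCL1, CXCL2 and CXCL3 there start from siNT means of 5.10, 1.45 and 3.73, near the value of 3 reads, so they depend on the pseudocount (these genes were picked out after their values were seen).

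Since ZFP36 is itself an immediate early gene, 9 other such genes were read beside it, of which FOS is also among the listed targets and DUSP1 in the p38-MK2 list. In MCF10A, 2 were higher and 2 lower with miR-28, and 4 higher and 1 lower with miR-708. The counts in hTERT RPE-1 were 5 and 2 with miR-28 (4 and 2 without the library that stood apart), then 4 and 2 with miR-708. JUN, an AP-1 subunit, rose in all 4 comparisons by 0.94 and 0.96 (MCF10A) and by 0.89 and 0.998 (hTERT RPE-1) on the log2 scale. KLF6, a zinc finger transcription factor, did so by 0.57 and 0.84, and by 1.16 and 1.16. Of the genes tested in both lines, 4.33% were called higher in all 4 comparisons. The changes of ZFP36 given above lay between -0.15 and 0.24 in the same comparisons.

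Interferon-stimulated genes moved with the mimics in the same libraries. The summed value of 6 of them (IFI6, MX1, OAS1, OAS2, IFIT1 and ISG15) was 656–894 with siNT, 619–1180 with miR-28 and 34349–57066 with miR-708 in MCF10A. In hTERT RPE-1 it was 740–971 with siNT, 10529–143417 with miR-28 and 122629–142666 with miR-708, and the lowest of the miR-28 libraries was replicate 1. IFI6, MX1 and IFIT1 were called higher in all 4 comparisons, as were 4.33% of the genes tested in both lines. OAS1 was called lower with miR-28 in MCF10A (-0.70) and higher in the other 3. The breast basal markers summed to 210426–229269 with siNT, 147976–159996 with miR-28 and 123720–145598 with miR-708 in MCF10A, with KRT14 and TP63 called lower with both mimics. The retinal pigment epithelial markers summed to 145195–154511 with miR-28 and 123361–140322 with miR-708 in hTERT RPE-1. Of the 7 listed there, 2 were called higher and 3 lower with miR-28, also without the library that stood apart, and 1 higher and 3 lower with miR-708. Those are 71.4% and 57.1% of the 7, beside 46.8% and 62.1% of all genes tested. MITF was called lower there with both mimics, and its change with miR-708 did not pass the test under library size scaling (-0.24, limma adjusted p = 0.0537). In MCF10A, MITF was called higher with both, by 0.94 (limma adjusted p = 0.00488) and 0.75 (limma adjusted p = 0.00891). With miR-708 in MCF10A the interferon sum was higher, while ZFP36L1 did not pass the test (-0.09). Replicate 1 of miR-28 in hTERT RPE-1 had the lowest interferon sum of the mimic libraries there and the lowest ZFP36L2 (937). The part of these genes in the results of ZFP36L1 and ZFP36L2 was not tested. In bulk RNA, fewer cells with a transcript and less of it per cell cannot be told apart.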

How the data were processed

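Polyadenylated RNA of MCF10A and hTERT RPE-1 cells was sequenced by the authors, who trimmed adapters, aligned reads to hg38 with HISAT2 2.1.0, estimated counts on RefSeq transcripts by E/M in Partek and tested with DESeq2. The expression signal they deposited, 1 table per line, is an estimated count over the median-of-ratios size factor of its library. Low values were whole multiples of a library's step (within 0.01 of a step) in 72.2–86.7% of cases, so the values were not turned back into reads. The tables hold no value of 0. The tables of the authors' own comparisons (ratios and p-values) were not used.

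Values were transformed as log2(value + 1), which understates the change of low genes, and a gene was kept where 3 or more of the 9 libraries in its line reached 10 (14726 in MCF10A, 14527 in hTERT RPE-1). A linear model with 3 group means and a trended prior was fitted with limma 3.58.1 in R 4.3.3, and p-values were adjusted by Benjamini-Hochberg over all genes tested, with calls below 0.05. Differences between lines are differences of these fold changes, with Welch–Satterthwaite degrees of freedom. Ratios were tested by exact permutation. Scripts were tested on simulated data. Tables were handled with pandas 2.3.3 and numpy 2.4.6 (Python 3.11.15) and plotted with matplotlib 3.10.9.

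Seed and AU-rich matches were searched in GENCODE 44 transcripts, 1 per gene. The sequence of hsa-miR-28-5p and protein sequences were not used here. The members and the lists were chosen with earlier results of these data known. Named genes are the members, the list genes called in all 4 comparisons with siNT or otherwise the 4 called genes of the list with the largest mean change, and the 3 genes most like each member among those with a mean of at least 100 in each line. A name outside this rule is said to be so where it stands.

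The replicate numbers were checked for shared deviations from the group means. Across genes, same-numbered MCF10A libraries had correlations of 0.26, 0.18 and 0.11 (miR-28 and siNT) and 0.30, 0.11 and 0.16 (miR-708 and siNT). Between the mimics they were 0.12, 0.02 and 0.18. In hTERT RPE-1 they were 0.28, 0.20 and 0.13 between the mimics and 0.02 to 0.15 between a mimic and siNT. Libraries of different numbers were not compared, so whether the numbers pair libraries was not settled. The main fits carry no block.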

Additional observations from a re-analysis of the deposited data

Results flagged for a closer look

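The response of ZFP36L1 differed between the cell lines by a test of the difference itself. With miR-28 the log2 fold change was 0.36 in hTERT RPE-1 and -0.08 in MCF10A, a difference of 0.44, and with miR-708 it was 0.29 and -0.09, a difference of 0.37. In hTERT RPE-1, 6 of 6 mimic libraries were above all siNT libraries, and in MCF10A the groups overlapped. Taken per mimic, 26.9% (miR-28) and 34.3% (miR-708) of all genes tested in hTERT RPE-1 lay wholly higher. A difference between the lines was called for 23.4% and 39.8% of the genes tested in both. The call of the ZFP36L1 difference with miR-708 was lost in 4 of 18 fits that left 1 library out. The comparisons with miR-28 and with miR-708 share the siNT libraries of each line. Groups of 3 libraries are too small for the outlier test, which was not run.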

How the results depend on the processing

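Alternatives were pseudocounts of 0.5 and 10, no filter, library size and upper quartile scaling, no trend, a fit of only the groups compared, the replicate block, each library left out in turn and, for the difference between the lines, a joint fit. The rise of ZFP36L1 with miR-28 in hTERT RPE-1 and its difference from MCF10A kept their direction and call in all alternatives run for them. Library size scaling reversed ZFP36L1 in MCF10A to 0.0354 with miR-28, 0.0565 with miR-708 and 0.0211 between the mimics, and ZFP36 and ZFP36L1 between the mimics in hTERT RPE-1 to 0.0402 and 0.16. It raised ZFP36L1 with miR-708 in hTERT RPE-1 to 0.61, brought ZFP36L2 with miR-28 in MCF10A to -0.17, and left ZFP36L2 with miR-708 in MCF10A at -0.25 (adjusted p = 0.0673, limma). The replicate block brought ZFP36L2 with miR-28 in MCF10A (-0.28) past the threshold (adjusted p = 0.0402), and changed no other call of a member. It raised the genes called over the lists between the mimics in MCF10A from 3 to 8. Over all genes, calls between the mimics in MCF10A went from 228 to 643 with the block and 150 without trend, and in hTERT RPE-1 from 3084 to 4650 with library size scaling. That scaling also changed what part of the calls was higher, from 47.1% to 66.1% (miR-28) and from 47.3% to 67.6% (miR-708) in MCF10A, and in hTERT RPE-1 from 49.7% to 71.8% with miR-708 and from 46.5% to 84.8% between the mimics. Upper quartile scaling gave 59.2% with miR-28 in MCF10A. A fit without trend called 13 list genes in place of 21 with miR-28 in MCF10A, and 1 between the mimics. With only the groups compared in the fit, ZFP36L2 with miR-708 in hTERT RPE-1 (-0.34) passed the threshold (adjusted p = 0.0437). With exon unions as lengths, the log2 ratios per kb with siNT became 0.49 (ZFP36L1 to ZFP36), 1.56 (ZFP36L2 to ZFP36) and 1.06 (ZFP36L2 to ZFP36L1, reversed) for MCF10A, and 3.06, 2.17 and -0.89 for hTERT RPE-1. The cause of these changes was not tested, except that the last follows from the lengths.

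Without 1 library at a time, the log2 fold change of ZFP36 with miR-708 was -0.11 to 0.14 (MCF10A) and -0.0972 to 0.17 (hTERT RPE-1), ZFP36L1 between the mimics in MCF10A -0.0354 to 0.00986, ZFP36L2 with miR-28 in hTERT RPE-1 -0.83 to -0.44, and ZFP36L1 with miR-708 there 0.24 to 0.32. The differences between the lines with miR-708 were -0.11 to 0.16 for ZFP36, 0.32 to 0.43 for ZFP36L1 and -0.0665 to 0.20 for ZFP36L2, and with miR-28 -0.55 to -0.16 for ZFP36L2. ZFP36L2 between the mimics in hTERT RPE-1 was 0.10 to 0.49. The ratio of ZFP36L1 to ZFP36 with miR-28 in hTERT RPE-1 changed by -0.0498 to 0.281 (-0.0498 without siNT replicate 1 and -0.0208 without miR-28 replicate 3), against 0.12. The list genes called in MCF10A numbered 12 to 24 with miR-28, 17 to 31 with miR-708 and 1 to 4 between the mimics, and 10 to 31 between the mimics in hTERT RPE-1.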
